A study of Mus musculus with 39 samples.

Results

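The ileum of BALB/cJ mice was compared with the ileum of C57BL/6J mice in 13 of the 39 bulk RNA-seq libraries of the series. BALB/cJ gave 6 ileum libraries and C57BL/6J gave 7, with 1 library per mouse, and these n hold for every value below unless stated. Both are inbred strains, and the labels name no treatment, transgene or deletion and no sex, age, diet or batch. The other libraries, 13 from the duodenum/jejunum and 13 from the colon of the same mice, were used only to ask where the ileum differs. Levels are in TPM, a measure of transcript abundance scaled by transcript length and to one fixed total per library. All genes that reached 1 TPM in 6 or more of the 13 ileum libraries were taken, 15537 of the 34574 entries used. Read numbers cannot be recovered from TPM, so depth is unknown, and the error given is the spread between mice. TPM totals of the ileum libraries lay between 990358 and 994945, and between 14922 and 16165 entries reached 1 TPM.

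The ileum is the last part of the small intestine. It takes up bile acids through the transporter Slc10a2 and the carrier Fabp6, and answers them by secreting Fgf15, which restrains bile acid synthesis in the liver. At the base of its crypts sit Paneth cells, which secrete alpha-defensins, short cationic peptides that kill bacteria, together with lysozyme and phospholipases. Goblet cells secrete mucins, tuft cells sense luminal metabolites and release interleukin 25, and Peyer's patches hold B and T cells. The strains are known to differ at the major histocompatibility complex (MHC), at the immunoglobulin heavy chain locus and at the alpha-defensin locus.

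Genes with alleles known to differ between the strains went with the strain labels in every ileum library. H2-Ea-ps, an MHC class II chain that C57BL/6 mice do not transcribe, ranged from 351 to 532 TPM (median 374) in BALB/cJ, against 0 to 0.233 TPM (median 0.167) in C57BL/6J. Pla2g2a, a Paneth cell phospholipase disrupted in C57BL/6 mice, ranged from 1763 to 2661 TPM (median 2095) in BALB/cJ, against 6.99 to 76.2 TPM (median 65.4) in C57BL/6J. Nnt, a mitochondrial transhydrogenase in which C57BL/6J carries a deletion of several exons, gave no such check at the gene level. It ranged from 10.2 to 17.3 TPM (median 15.2) in BALB/cJ and from 7.89 to 17.8 TPM (median 9.12) in C57BL/6J, with an adjusted p of 0.137. With C57BL/6J mouse 3 left out the adjusted p was 0.0328.

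The ileum library of C57BL/6J mouse 2 went against its tissue label. Fabp6 was at 22.1 TPM in it, against 3766 to 8189 TPM in the other C57BL/6J ilea and 4884 to 11144 TPM in the BALB/cJ ilea. Tmprss15, the enteropeptidase of the duodenum, was at 51.2 TPM in this library. Fabp1, a fatty acid carrier of the proximal small intestine, was at 6947 TPM in it, against 220 to 1184 TPM in BALB/cJ and 66 to 515 TPM in the other C57BL/6J ilea. The library labelled duodenum/jejunum of the same mouse held 6111 TPM of Fabp6 and 39.2 TPM of Tmprss15. Its ileum library correlated with those of its own strain with a median r of 0.9288 across genes, against 0.9638 to 0.9792 for the other 12 libraries. Results are therefore given with this library and without it. BALB/cJ mouse 2 held the highest mean level of B cell, T cell, macrophage and stromal markers, and Fabp2 and Apoa1, carriers of absorbed fat, were lowest in it among the BALB/cJ ilea.

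**Figure D1:**
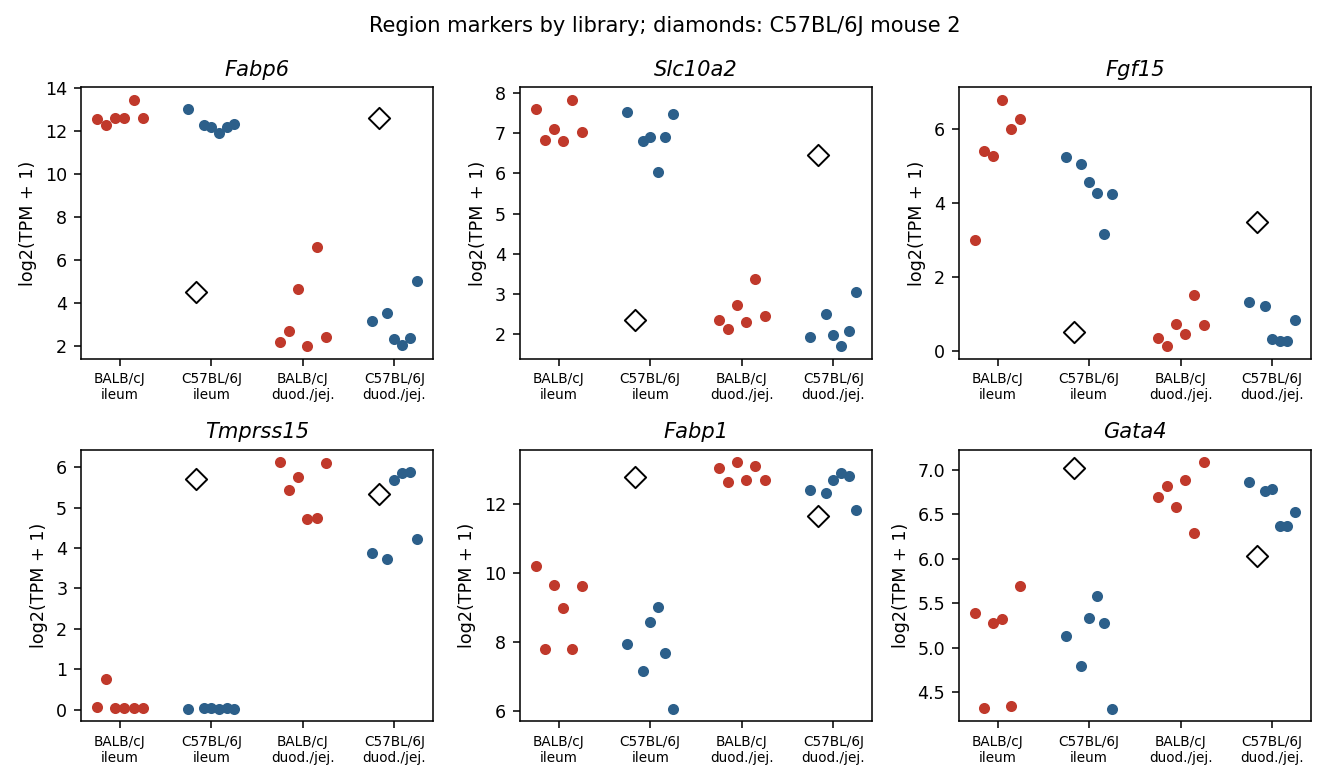
Levels of 6 markers of gut region as log2(TPM + 1) (y axis) in each ileum and duodenum/jejunum (duod./jej.) library by strain (x axis); each point is 1 library, and open diamonds are C57BL/6J mouse 2. In its ileum library Fabp6 was at 22.1 TPM and Tmprss15 at 51.2 TPM, and in its duodenum/jejunum library Fabp6 was at 6111 TPM.

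Of the 15537 genes tested, 3169 (20.4%) were called, with an adjusted p under 0.05 in limma on the deposited values. In BALB/cJ 2677 genes (17.2%) were higher and 492 (3.17%) lower. This split depended on the scaling. The median of all log2 differences between the strains was 0.168 as deposited and -0.00183 after median-of-ratios scaling, in which each library is divided by its median ratio to a common profile. After that scaling 1824 genes (11.7%) were called, 942 (6.06%) higher and 882 (5.68%) lower in BALB/cJ, and 942 of the 2677 higher calls and 490 of the 492 lower calls were kept. Without C57BL/6J mouse 2, 15434 genes were tested and 3628 (23.5%) were called, 3032 (19.6%) higher and 596 (3.86%) lower. Without that library and with scaling, 2256 (14.6%) were called, 1163 (7.54%) higher and 1093 (7.08%) lower. In all 4 of these fits 1347 genes (8.67%) were called, 892 (5.74%) higher and 455 (2.93%) lower in BALB/cJ. Among the calls as deposited, 374 higher and 178 lower genes differed by at least 2-fold. The levels of the strains did not overlap in 1525 genes (9.82%), or in 1863 (12%) without C57BL/6J mouse 2. The number of calls also moved with single libraries: it was 1948 without BALB/cJ mouse 5 and 4041 without C57BL/6J mouse 3.

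**Figure D2:**
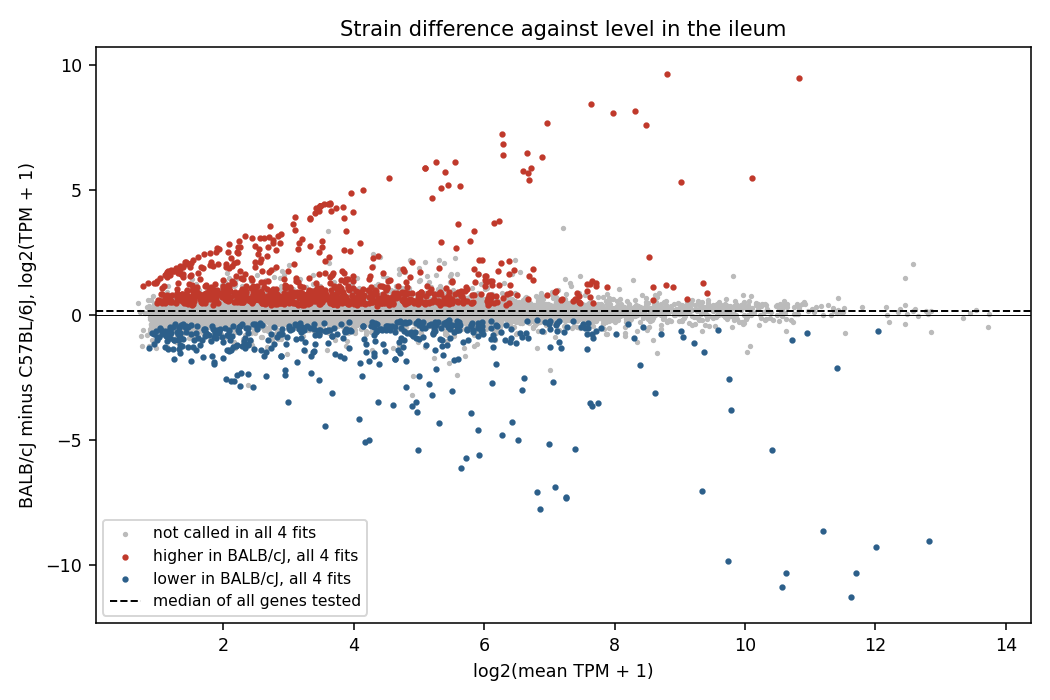
Difference in log2(TPM + 1), BALB/cJ minus C57BL/6J (y axis), against log2 of the mean TPM plus 1 (x axis) for the 15537 genes tested; red and blue points are the 892 higher and 455 lower genes called in all 4 fits, and the dashed line is the median of all genes at 0.168. The largest differences in both directions lay among abundant as well as scarce genes.

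Alpha-defensins carried the largest differences in the ileum and are shown by sequence because the genes differ from each other by few bases. They lie together on chromosome 8, from Defa21 at chr8:21025545-21026516 to Defa24 at chr8:21734494-21735471 on GRCm38. The ends of 4 coding sequences from GENCODE M21, which hold most of the mature peptide, follow 5′ to 3′ on the coding strand. Capitals mark bases that differ from the aligned Defa20 sequence or have no partner in it.
Defa20: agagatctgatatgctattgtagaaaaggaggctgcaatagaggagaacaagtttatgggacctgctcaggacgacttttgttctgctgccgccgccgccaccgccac
Defa22: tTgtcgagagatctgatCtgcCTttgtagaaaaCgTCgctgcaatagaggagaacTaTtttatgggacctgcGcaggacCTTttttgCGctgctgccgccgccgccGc
Defa26: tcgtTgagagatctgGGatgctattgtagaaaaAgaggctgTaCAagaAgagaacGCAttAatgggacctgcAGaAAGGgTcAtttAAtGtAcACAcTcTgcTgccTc
Defa27: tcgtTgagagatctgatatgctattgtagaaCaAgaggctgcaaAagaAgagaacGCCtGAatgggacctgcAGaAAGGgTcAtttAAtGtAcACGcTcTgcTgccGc
Defa32, Defa2 and Defa33 had the same bases as Defa20 over the stretch shown, with 100%, 99.6% and 99.6% identity to it over the whole aligned coding sequence. Defa22 was 91.8% identical to Defa20, Defa26 84.2% and Defa27 82.1%. None of the 31-base words in the transcripts of Defa20, Defa32, Defa2 and Defa33 (0%) was found in that gene alone, against 28.3% for Defa27, 31.9% for Defa26 and 8.23% for Defa22. The values of single members are therefore uncertain, and sums over alike members are given beside them.

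Nearly all called alpha-defensins were lower in BALB/cJ, and Defa27 was the exception. Of 39 Defa symbols in the table, 25 passed the filter on low values and 14 did not. As deposited, 1 (4%) was higher and 16 (64%) lower in BALB/cJ, against 17.2% and 3.17% of all genes. The counts were the same after scaling, where 6.06% and 5.68% of all genes were called. Without C57BL/6J mouse 2, 2 were higher and 21 lower, against 19.6% and 3.86% of all genes. Lower calls fell to 10 when C57BL/6J mouse 5 or mouse 6 was left out. The median difference of the 25 was -2.43 on the log2 scale, against 0.168 for all genes tested. Defa20, Defa32, Defa2 and Defa33 together ranged from 21 to 40 TPM (median 24.3) in BALB/cJ. In C57BL/6J their sum was 352 TPM in mouse 2 and 15279 to 41460 TPM in the other mice, so the strains did not overlap. Defa21 and Defa22 together ranged from 4.92 to 17.6 TPM in BALB/cJ, against 200 TPM in C57BL/6J mouse 2 and 5813 to 16815 TPM in the other C57BL/6J ilea. The build GRCm38 is the genome of C57BL/6J, and whether BALB/cJ copies that differ from it lower these values was not tested. Less RNA per cell and fewer cells of a type cannot be told apart in these bulk samples, here and for every cell type below.

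Among single members, Defa20 was at 4.44 to 27.6 TPM in BALB/cJ, against 239 TPM in C57BL/6J mouse 2 and 8027 to 22406 TPM in the other C57BL/6J mice (log2 difference -9.06 ± 0.90 SE, adjusted p 6.3e-06). Defa2 and Defa33 were listed at 0 in all 6 BALB/cJ ilea, so they pass the filter on low values only through the C57BL/6J libraries. In C57BL/6J they reached 4231 and 2399 TPM. Defa26 was at 0 to 2.99 TPM in BALB/cJ and at 19.7 to 364 TPM (median 331) in C57BL/6J (log2 difference -6.87 ± 0.64, adjusted p 2.9e-06). Defa27 went the other way: it ranged from 2699 to 4530 TPM (median 3746) in BALB/cJ, against 0 to 7.49 TPM (median 4.58) in C57BL/6J (log2 difference 9.5 ± 0.40, adjusted p 3.4e-10). Defa31, whose 31-base words all occur in other genes too, was at 7206 to 10818 TPM in BALB/cJ and 138 to 5726 TPM in C57BL/6J. Its adjusted p was 0.0523 with C57BL/6J mouse 2 and 0.00338 without it. Defa23 holds all of these words, and the sum of Defa31 and Defa23 overlapped between the strains. That sum was 9197 to 13413 TPM in BALB/cJ, against 939 TPM in C57BL/6J mouse 2 and 3566 to 10678 TPM in the others. Defa24 and Defa17, among the 10 most abundant genes of the ileum, did not pass the test with all libraries. Defa24 ranged from 7259 to 10073 TPM in BALB/cJ, against 1024 to 18035 TPM (median 14249) in C57BL/6J, and was lower in BALB/cJ without mouse 2 (adjusted p 0.0387). Defa17 ranged from 4788 to 6981 TPM in BALB/cJ and from 522 to 9725 TPM in C57BL/6J (adjusted p 0.783). All Defa symbols together came to 30326 to 43324 TPM (median 35855) in BALB/cJ, against 4131 TPM in C57BL/6J mouse 2 and 43985 to 121359 TPM in the other 6. The list includes pseudogenes.

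**Figure D3:**
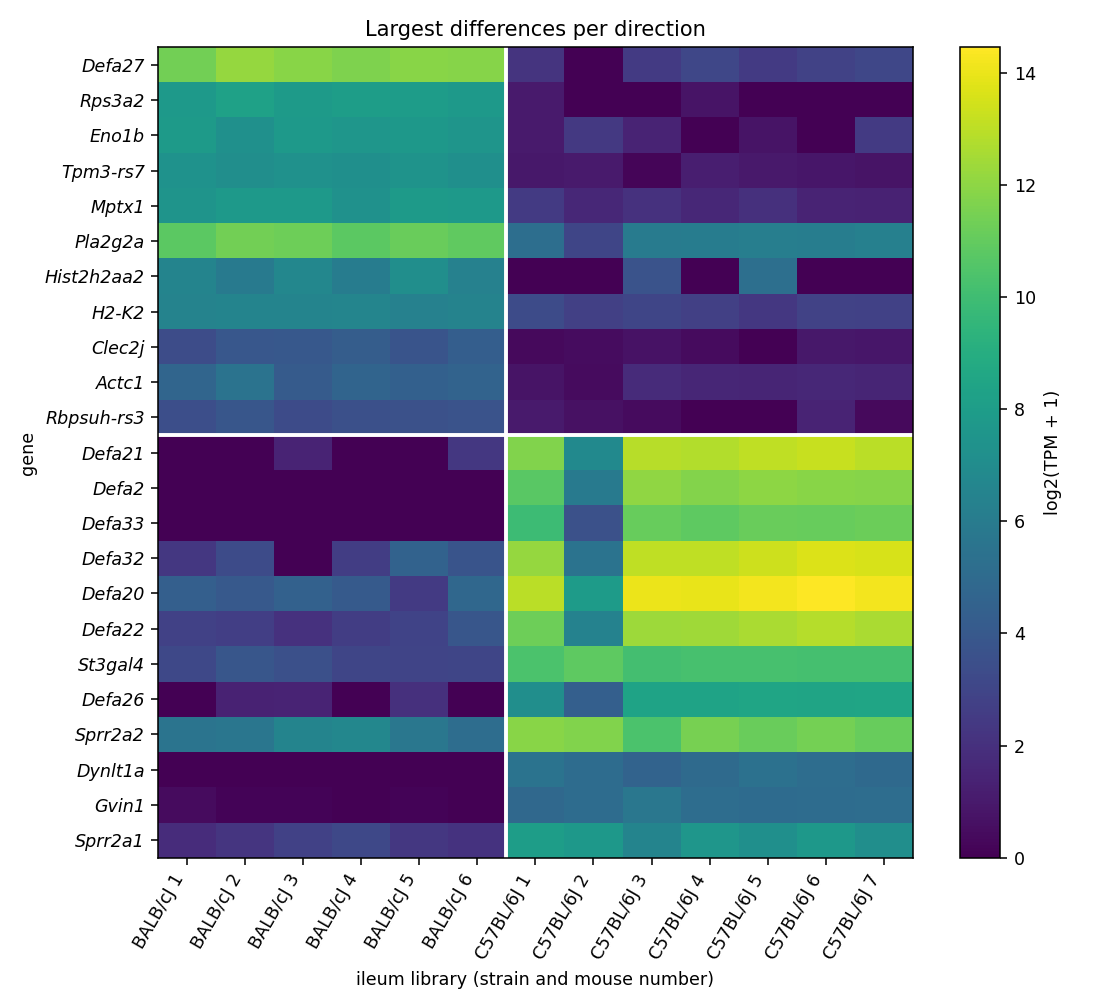
Level as log2(TPM + 1) (colour) of the named genes with the largest difference in each direction (rows; the upper 11 higher, the lower 12 lower in BALB/cJ) in the 13 ileum libraries (columns, BALB/cJ left of the white line). Defa2 and Defa33 are at 0 in all BALB/cJ libraries, and the alpha-defensins are lower in C57BL/6J mouse 2 than in the other C57BL/6J libraries.

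Other Paneth cell products differed gene by gene. The list had 9 tested members, of which 2 (22.2%) were higher and 1 (11.1%) lower in BALB/cJ in all 4 fits. Over all genes these shares were 5.74% and 2.93%. Mptx1, a secreted pentraxin, ranged from 158 to 234 TPM (median 221) in BALB/cJ, against 1.6 to 4.46 TPM (median 2.11) in C57BL/6J. The log2 difference was 5.89 ± 0.17 SE with an adjusted p of 2.9e-12. Its neighbour in sequence Mptx2, a Paneth cell pentraxin, went the other way. Mptx2 ranged from 23.3 to 102 TPM in BALB/cJ, against 33.2 TPM in C57BL/6J mouse 2 and 361 to 1178 TPM in the other C57BL/6J ilea (adjusted p 0.00751, and 4.3e-06 without mouse 2). Of the 31-base words of Mptx1, 25% occur in Mptx2 too. Their sum was 201 to 331 TPM in BALB/cJ, against 35.3 TPM in C57BL/6J mouse 2 and 366 to 1180 TPM in the other C57BL/6J ilea. Lyz1, the Paneth cell lysozyme, had a log2 difference of -0.01 and an adjusted p of 0.988. Ang4, a bactericidal ribonuclease, was at 149 to 244 TPM in BALB/cJ, against 32.7 TPM in C57BL/6J mouse 2 and 282 to 809 TPM in the others. It was called only without that library (adjusted p 2.0e-04).

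Among 25 tested antimicrobial genes, 2 (8%) were higher and 4 (16%) lower in BALB/cJ in all 4 fits, against 5.74% and 2.93% of all genes. As deposited the counts were the same, against 17.2% and 3.17% of all genes. The lower calls came to 8 without C57BL/6J mouse 2, where 3.86% of all genes were lower. Sprr2a2, a small proline-rich protein with bactericidal activity, ranged from 35 to 101 TPM (median 51.2) in BALB/cJ, against 1326 to 3796 TPM (median 2812) in C57BL/6J (log2 difference -5.41 ± 0.27 SE, adjusted p 2.6e-09). Sprr2a1 ranged from 2.56 to 7.72 TPM in BALB/cJ, against 89.2 to 258 TPM in C57BL/6J. Only 2.17% of the words of Sprr2a2 and 3.06% of those of Sprr2a1 occur in no other gene. Together with Sprr2a3 they summed to 69.8 to 186 TPM in BALB/cJ and 1442 to 4148 TPM in C57BL/6J, without overlap. Reg4, a lectin of enteroendocrine and goblet cells, was 3.04-fold higher in BALB/cJ, at 124 ± 33 TPM (SD) against 40.7 ± 19 TPM. Reg3b and Reg3g, bactericidal lectins at the top of the expression range, varied widely within each strain. Reg3b was at 4351 to 17169 TPM (median 9519) in BALB/cJ and 2847 to 27678 TPM (median 19786) in C57BL/6J (adjusted p 0.537, and 0.138 without mouse 2). Reg3g was at 2714 to 8480 TPM in BALB/cJ and 1473 to 16654 TPM in C57BL/6J (adjusted p 0.381). For neither was a strain difference detectable over this spread. Duox2, an epithelial oxidase that makes hydrogen peroxide, was lower in BALB/cJ at 51 to 95.2 TPM against 54.5 to 215 TPM in C57BL/6J (adjusted p 0.0429), a call lost in 10 of the 13 fits that left out 1 library.

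Among genes of the mucus layer, the largest difference lay in an enzyme that builds its sugars. St3gal4, a sialyltransferase at chr9:35046576-35119268, ranged from 6.67 to 13.6 TPM (median 7.47) in BALB/cJ, against 1101 to 1834 TPM (median 1213) in C57BL/6J. It was thus 146-fold lower in BALB/cJ, with a log2 difference of -7.06 ± 0.16 SE and an adjusted p of 2.5e-13, and C57BL/6J mouse 2 was the highest library. B3gnt3, which extends core glycans, was at 18.7 to 24 TPM in BALB/cJ and 60.1 to 91.1 TPM in C57BL/6J (adjusted p 3.0e-09). Gcnt1, which branches them, was also lower in BALB/cJ, at 3.61 ± 0.948 TPM against 9.95 ± 4.1 TPM. St3gal6, another sialyltransferase, was higher in BALB/cJ at 55.5 to 70.5 TPM, against 17.7 to 39.3 TPM in C57BL/6J (adjusted p 6.2e-05). Of 36 tested genes of mucin glycosylation, 4 (11.1%) were higher and 4 (11.1%) lower in BALB/cJ as deposited. The shares of all genes were 17.2% and 3.17%. After scaling 1 (2.78%) was higher and 5 (13.9%) lower, against 6.06% and 5.68%. The higher count was 1 to 5 with single libraries left out, lowest without BALB/cJ mouse 4, 5 or 6 or C57BL/6J mouse 4 or 5. The membrane mucins Muc3 and Muc4 were lower in BALB/cJ, Muc3 2.18-fold (252 to 485 TPM against 679 to 1061 TPM) and Muc4 3.33-fold (4.27 to 12.8 TPM against 16 to 40.4 TPM). Of 18 goblet cell genes 1 was called as deposited in limma and 0 after scaling, where 3 had an unadjusted p under 0.05. Without C57BL/6J mouse 2, 3 were higher and 1 lower, and 1 and 1 after scaling. Muc2, the secreted gel-forming mucin, had a log2 difference of 0.06 and an adjusted p of 0.889.

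Butyrophilin-like genes, whose products on enterocytes hold gamma-delta T cells in the epithelium, were lower in BALB/cJ in 2 of 4 tested members, and 0 were higher. Over all genes 3.17% were lower and 17.2% higher. Btnl6 ranged from 22.9 to 36.2 TPM (median 30.6) in BALB/cJ, against 309 to 487 TPM (median 348) in C57BL/6J, 11.8-fold lower (adjusted p 2.2e-11). Btnl1 was at 72.4 to 141 TPM in BALB/cJ and 126 to 334 TPM in C57BL/6J (adjusted p 0.0283), a call lost in 3 of 13 fits that left out 1 library, among them those without BALB/cJ mouse 2 or mouse 5. Among 16 intraepithelial lymphocyte and cytotoxic genes, 2 (12.5%) were higher and 1 (6.25%) lower, against 17.2% and 3.17% of all genes. The lower call was lost in 8 of the 13 fits that left out 1 library, and the higher count was 1 in 5 of them. Ncr1, an activating receptor of natural killer cells and related lymphocytes, was at 1.33 to 2.58 TPM in BALB/cJ and 0.125 to 0.697 TPM in C57BL/6J (adjusted p 4.3e-05), and was not tested in fits that left out a BALB/cJ library, since it passes the filter on low values only through those 6. Klrk1, which encodes the receptor NKG2D, was 2.46-fold higher in BALB/cJ.

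Several of the largest differences belonged to genes with a closely related parent gene elsewhere. Rps3a2, Eno1b and Tpm3-rs7 are copies of Rps3a1, Eno1 and Tpm3, and shared 84.8%, 81.8% and 78.6% of their 31-base words with them. Rps3a2 was at 215 to 304 TPM in BALB/cJ and 0 to 1.09 TPM in C57BL/6J. The sum of Rps3a1 and Rps3a2 was 988 to 1269 TPM in BALB/cJ and 520 to 1040 TPM in C57BL/6J. Eno1b was at 151 to 231 TPM in BALB/cJ, against 0 to 4.45 TPM in C57BL/6J, while Eno1 and Eno1b together overlapped, at 664 to 823 TPM in BALB/cJ and 530 to 1311 TPM in C57BL/6J. Tpm3-rs7 was at 141 to 170 TPM in BALB/cJ and 0.131 to 1.36 TPM in C57BL/6J. With Tpm3 its sum was 349 to 422 TPM in BALB/cJ and 361 to 500 TPM in C57BL/6J, again with overlap. Dynlt1a, a dynein light chain gene with 65.4% of its words in Dynlt1f, was listed at 0 in all BALB/cJ ilea and at 22.8 to 43.7 TPM in C57BL/6J. It passes the filter on low values only through the C57BL/6J libraries. The sum over Dynlt1a, b, c and f went the other way, at 452 to 533 TPM in BALB/cJ and 247 to 283 TPM in C57BL/6J. Which copy the reads of these genes came from was not tested.

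Other large differences lay in genes with most of their sequence to themselves. Actc1, the cardiac alpha-actin, has 99.2% of its words to itself and ranged from 16.9 to 44.2 TPM (median 23.7) in BALB/cJ, against 0.345 to 2.38 TPM (median 1.83) in C57BL/6J (log2 difference 3.38 ± 0.25 SE, adjusted p 1.9e-07). Clec2j, annotated as an unprocessed pseudogene of the C-type lectins, was at 9.4 to 19.3 TPM in BALB/cJ and 0 to 0.911 TPM in C57BL/6J. Pnp2, a purine nucleoside phosphorylase, was 22.1-fold lower in BALB/cJ, at 7.35 ± 1.84 TPM against 162 ± 34.3 TPM (adjusted p 2.6e-10). Ndufa12, an accessory subunit of respiratory complex I, was at 25 to 32.1 TPM in BALB/cJ and 152 to 174 TPM in C57BL/6J (adjusted p 9.7e-13). The strains did not overlap in any of these genes.

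Tuft cell genes were lower in BALB/cJ where they were called. Of 15 tested markers 0 were higher and 7 (46.7%) lower, the same counts in all 4 fits. Over all genes 17.2% were higher and 3.17% lower as deposited, and 6.06% and 5.68% after scaling. When single libraries were left out, 5 to 7 markers were lower. The list's median difference was -0.35, and -0.50 after scaling. Avil, an actin-bundling protein of the tuft, was at 1.51 to 2.09 TPM (median 1.86) in BALB/cJ and 4.24 to 8.17 TPM (median 6.7) in C57BL/6J (log2 difference -1.34 ± 0.14 SE, adjusted p 1.5e-05). Trpm5, the cation channel of the tuft cell's taste-like pathway, was at 1.4 to 3.21 TPM in BALB/cJ and 5.33 to 14.5 TPM in C57BL/6J (adjusted p 2.3e-04). Sh2d6 was 12-fold lower in BALB/cJ, at 0.401 ± 0.222 TPM against 4.82 ± 2.48 TPM. It was below 1 TPM in every BALB/cJ ileum and passes the filter on low values only through the C57BL/6J libraries. Rgs13, a regulator of G protein signalling, was 2.61-fold lower. Siglecf and Dclk1, named after their values were seen, were also called, with log2 differences of -1.01 and -0.77. The list was not uniform. Il17rb, the receptor of interleukin 25, had a log2 difference of 0.04 (adjusted p 0.862), and Ptgs1, a cyclooxygenase, one of 0.37 (adjusted p 0.117). The summed level of the list overlapped, at 75.8 to 136 TPM in BALB/cJ and 84.8 to 143 TPM in C57BL/6J.

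Hormone genes of enteroendocrine cells were higher in BALB/cJ where they were called. Of 18 tested, 4 (22.2%) were higher as deposited and 3 (16.7%) after scaling, against 17.2% and 6.06% of all genes, with 0 lower. Gcg, the precursor of the glucagon-like peptides, was at 75.4 to 106 TPM (median 88.5) in BALB/cJ, against 7.2 TPM in C57BL/6J mouse 2 and 34.9 to 54.9 TPM in the others (adjusted p 0.0129, and 1.1e-05 without mouse 2). Sst, somatostatin, was 1.51-fold higher at 45.8 ± 2.61 TPM against 30.5 ± 4.24 TPM. Scg5, a chaperone of prohormone processing, was at 5.81 to 7.62 TPM in BALB/cJ and 1.13 to 3.07 TPM in C57BL/6J (adjusted p 1.9e-05). Chga, chromogranin A and a general marker of these cells, had a log2 difference of 0.05 (adjusted p 0.785). The summed level of the list did not overlap, at 487 to 733 TPM in BALB/cJ and 341 to 428 TPM in C57BL/6J.

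Macrophage and dendritic cell genes were higher in BALB/cJ where they were called. Of 27 tested, 10 (37%) were higher and 0 lower as deposited, and 7 (25.9%) were higher after scaling. Over all genes 17.2% and 6.06% were higher. Siglech, a marker of plasmacytoid dendritic cells, was at 4.28 to 10.3 TPM (median 5.89) in BALB/cJ, against 0.819 to 1.55 TPM (median 1.1) in C57BL/6J (log2 difference 1.76 ± 0.16 SE, adjusted p 2.6e-06). Lyz2, the lysozyme of myeloid cells, was at 238 to 466 TPM in BALB/cJ and 37.8 to 152 TPM in C57BL/6J (adjusted p 0.00524). Of its 31-base words 32.8% occur in Lyz1, the Paneth cell lysozyme, too. Cx3cr1, a receptor of resident macrophages, was 2.04-fold higher and Mrc1, the mannose receptor, 1.81-fold higher in BALB/cJ. Csf1r and Adgre1, defining markers of macrophages, did not pass, with log2 differences of 0.35 (adjusted p 0.135) and 0.51 (adjusted p 0.0795). The 10 calls became 7 without BALB/cJ mouse 2, whose summed marker level was 1292 TPM in a BALB/cJ range that began at 684 TPM. Without BALB/cJ mouse 5 the count was 7 too. In C57BL/6J the sum was 209 TPM in mouse 2 and 457 to 562 TPM in the others, so the strains did not overlap.

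**Figure D4:**
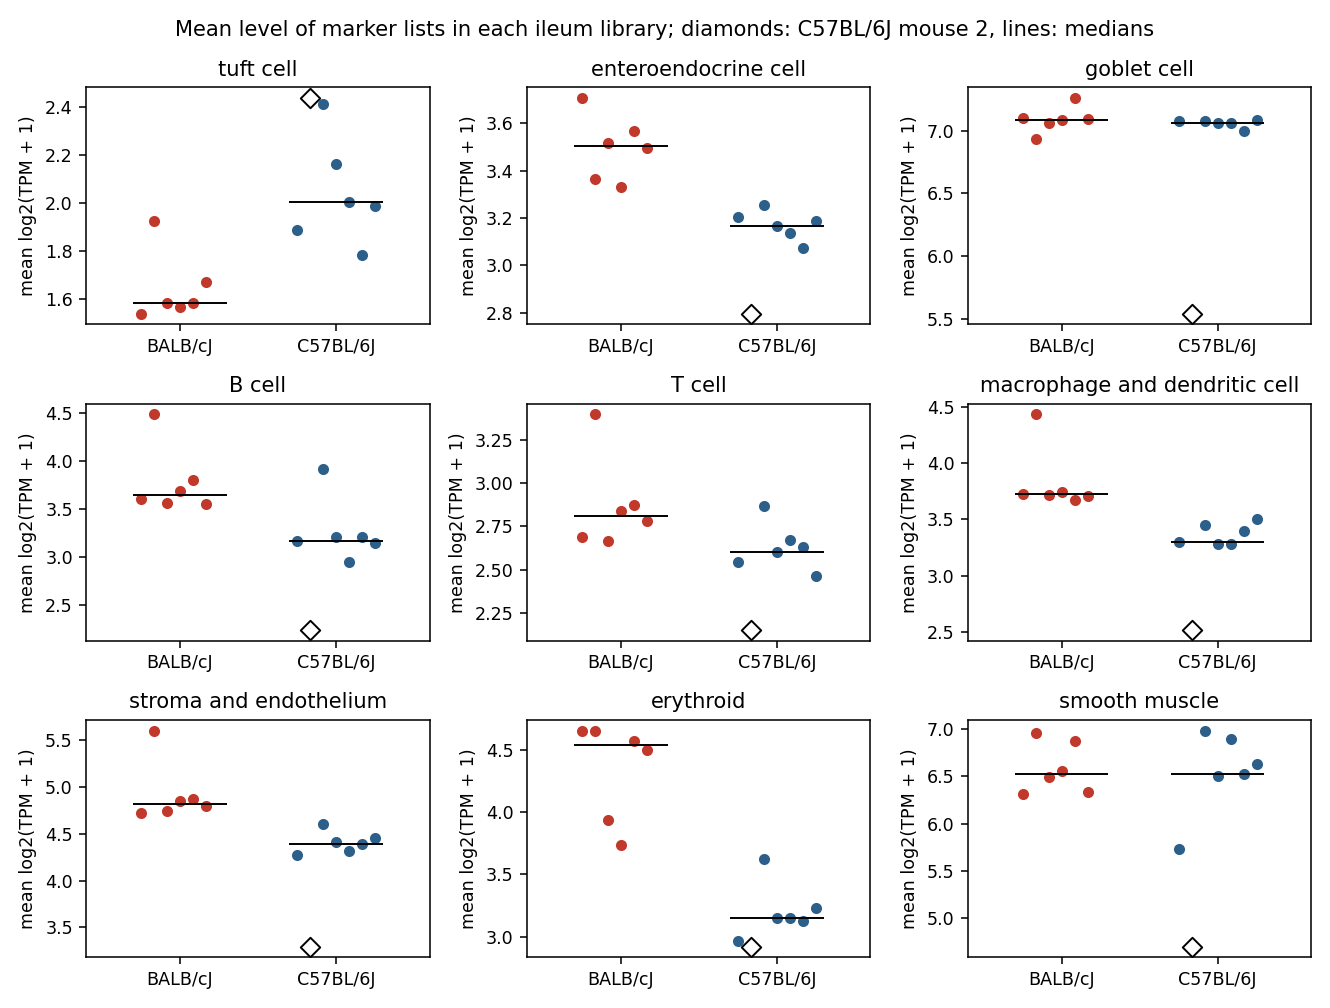
Mean log2(TPM + 1) over the members of 9 marker lists (y axis of each panel) in each ileum library by strain (x axis); points are libraries, diamonds C57BL/6J mouse 2 and lines the median of each strain. The erythroid list did not overlap between the strains, the smooth muscle list overlapped, and C57BL/6J mouse 2 was the lowest of all libraries in each panel except that of the tuft cell list, where it was the highest.

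Stromal, vascular and matrix genes were higher in BALB/cJ in counts that rested partly on single libraries. Of 18 stromal and endothelial genes, 10 (55.6%) were higher and 1 lower as deposited, and 3 (16.7%) were higher after scaling. Among all genes the higher shares were 17.2% and 6.06%. The higher count was 3 without BALB/cJ mouse 2, 4 without BALB/cJ mouse 5, 5 without C57BL/6J mouse 5, and 6 without BALB/cJ mouse 4 or 6 or C57BL/6J mouse 1. Pdgfra and Pdgfrb, growth factor receptors of fibroblasts and pericytes, were 1.89-fold and 1.67-fold higher in BALB/cJ. Vwf, von Willebrand factor of the endothelium, was 1.56-fold lower (adjusted p 0.0243), a call lost without BALB/cJ mouse 1 or mouse 5. Of 34 collagens, 14 (41.2%) were higher and 1 lower, and 8 (23.5%) were higher after scaling. As deposited 8 were also higher without BALB/cJ mouse 2 or mouse 5. Col6a5 was at 8.41 to 14.7 TPM in BALB/cJ and 1.63 to 3.44 TPM in C57BL/6J (adjusted p 1.1e-06), and Col4a6, a chain of basement membranes, was 9.52-fold lower in BALB/cJ (adjusted p 4.8e-06). Col4a6 was at 0.137 to 0.366 TPM in BALB/cJ and passes the filter on low values only through the C57BL/6J libraries. Of 15 smooth muscle genes 0 were called in limma, and 0 had an unadjusted p under 0.05.

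Globin genes, whose RNA marks red cells, were higher in BALB/cJ. Of 5 tested erythroid genes 4 (80%) were higher, all of them globins, in all 4 fits and with each library left out. Over all genes 5.74% were higher in all 4 fits. Hbb-bs, a beta-globin, ranged from 115 to 225 TPM (median 170) in BALB/cJ, against 27.6 to 77.2 TPM (median 42.8) in C57BL/6J, 3.65-fold (adjusted p 2.4e-05). The alpha-globins Hba-a1 and Hba-a2 together were at 81.9 to 192 TPM in BALB/cJ and 32.5 to 64 TPM in C57BL/6J, without overlap. The part of blood in the samples in the immune results was not tested.

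Some lymphocyte genes were higher in BALB/cJ, in counts that depended on single libraries and, for T cell genes, lay near the share of all genes. Of 19 B cell genes 6 were higher as deposited, 2 after scaling, and 13 without C57BL/6J mouse 3. The count was 1 without BALB/cJ mouse 2, 4 or 5 or C57BL/6J mouse 5 or 6, and 15 had an unadjusted p under 0.05. Fcer2a, the low-affinity receptor of immunoglobulin E, was 1.78-fold higher in BALB/cJ (adjusted p 0.0222). Ms4a1, which encodes CD20, had a log2 difference of 0.65 and an adjusted p of 0.069. In germinal centre genes 4 of 6 (66.7%) were higher, 2 (33.3%) after scaling, and 2 to 5 with single libraries left out. Of 27 T cell genes 6 (22.2%) were higher as deposited and 2 (7.41%) after scaling, against 17.2% and 6.06% of all genes tested. The count was 1 without BALB/cJ mouse 5, 10 without C57BL/6J mouse 3 and 2 to 5 without any other single library. Cd4, the coreceptor of helper T cells, was 1.74-fold higher and Cd28, a costimulatory receptor, 2.07-fold higher in BALB/cJ. Cd8a and Cd3e did not pass, with adjusted p of 0.278 and 0.498. Mcpt1 and Mcpt2, proteases of mucosal mast cells, were 3.22-fold and 3.8-fold higher in BALB/cJ. They were the 2 higher calls (40%) among the 5 mast cell genes tested, against 17.2% of all genes as deposited.

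Immunoglobulin genes differed by class and by segment. Igha, the heavy chain of immunoglobulin A, was at 2693 to 5134 TPM (median 2977) in BALB/cJ, against 3129 to 5897 TPM (median 5607) in C57BL/6J. It was 1.56-fold lower in BALB/cJ (adjusted p 0.038), a call lost in 10 of 13 fits that left out 1 library and made without C57BL/6J mouse 2 (adjusted p 0.00261). The values listed under Ighg2c and Ighg3, heavy chains of immunoglobulin G, were 2.59-fold and 2.86-fold higher in BALB/cJ. The strains differ at this locus, and whether reads of other BALB/cJ constant genes fall to these entries was not tested. Pou2af1, a coactivator of B and plasma cells, was at 19.5 to 37.8 TPM in BALB/cJ and 6.78 to 19.3 TPM in C57BL/6J (adjusted p 0.00745). On chromosome 12, 22 of 53 tested genes between 114000001 and 115000000 were called in all 4 fits, 14 higher and 8 lower in BALB/cJ. All but Gm18551 were heavy chain variable segments. In the next megabase 14 of 32 were called, 2 higher and 12 lower. Both stretches were picked as being among those with the most calls, and 8.67% of all genes were called in all 4 fits. Variable segments are alike in sequence, and whether reads of BALB/cJ segments fall to other segments of the C57BL/6J genome was not tested.

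MHC genes moved in both directions. Of 31 tested genes of class I presentation, 9 (29%) were higher and 4 (12.9%) lower in BALB/cJ as deposited. Over all genes these shares were 17.2% and 3.17%. After scaling 5 (16.1%) were higher and 5 (16.1%) lower, against 6.06% and 5.68%. H2-K1, a classical class I chain, was at 326 to 355 TPM (median 339) in BALB/cJ, against 717 to 1383 TPM (median 981) in C57BL/6J (log2 difference -1.5 ± 0.13 SE, adjusted p 1.3e-06). H2-K2, annotated beside it as a transcribed pseudogene, was at 81.6 to 94.6 TPM in BALB/cJ and 4.14 to 8.9 TPM in C57BL/6J. The sum of H2-K1 and H2-K2 was still lower in BALB/cJ, at 421 to 441 TPM against 725 to 1389 TPM. H2-D1, the other classical chain, had a log2 difference of 0.25 (adjusted p 0.109). The nonclassical genes H2-Q10, H2-Q6 and H2-T10 stood in BALB/cJ at 5.94-fold, 3.65-fold and 2.4-fold the C57BL/6J mean, though only 48.2% of the words of H2-Q6 and 35.8% of those of H2-T10 occur in no other gene. B2m, the light chain that all class I molecules share, had a log2 difference of -0.19 (adjusted p 0.351). Of 14 class II genes 3 (21.4%) were higher and 2 (14.3%) lower, with 1 higher without BALB/cJ mouse 5. The lower count was 4 without C57BL/6J mouse 2, and 1 in 7 of the 13 fits that left out 1 library. H2-Ab1, a chain of the classical molecule I-A, was at 372 to 433 TPM in BALB/cJ and 499 to 761 TPM in C57BL/6J (adjusted p 0.00104). H2-DMb2 was at 41 to 58.9 TPM in BALB/cJ and 6.15 to 26.6 TPM in C57BL/6J (adjusted p 1.1e-04). Its neighbour H2-DMb1, which like it encodes a chain of the peptide-loading catalyst, was lower in BALB/cJ at 61.2 ± 3.74 TPM against 82.7 ± 14.8 TPM, a call lost in 7 of 13 fits that left out 1 library.

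Interferon-stimulated genes were called in both directions. Of 64 tested, 7 (10.9%) were higher and 8 (12.5%) lower in BALB/cJ as deposited, against 17.2% and 3.17% of all genes. After scaling 4 (6.25%) were higher and 10 (15.6%) lower, against 6.06% and 5.68%. With single libraries left out 4 to 8 were higher and 6 to 10 lower. Isg15 and Irf7, widely used reporters of interferon signalling, had log2 differences of 0.10 and 0.04, with adjusted p of 0.892 and 0.944. The called members differed widely in size. Ifi44l was at 2.45 to 5.04 TPM in BALB/cJ and was listed at 0 in all C57BL/6J ilea. Trim12a, a relative of the restriction factor Trim5, was at 4.78 to 10.7 TPM in BALB/cJ and 39.5 to 92.6 TPM in C57BL/6J (adjusted p 7.3e-08). Trim30d and Trim34a were 3.95-fold and 1.63-fold lower, and only 31.5% of the words of Trim34a occur in no other gene. These Trim genes lie on chromosome 7 between 104000001 and 105000000, where 10 of 20 tested genes were called in all 4 fits, 3 higher and 7 lower in BALB/cJ. That stretch was picked as being among those with the most calls, and 8.67% of all genes were called in all 4 fits. Among 18 interferon-inducible GTPases 3 (16.7%) were higher and 2 (11.1%) lower, the higher share near the 17.2% of all genes. Gbp2b was at 22.4 to 44.3 TPM in BALB/cJ and 6.13 to 8.73 TPM in C57BL/6J (adjusted p 1.5e-07), whereas Gbp6 was at 3.48 to 7.58 TPM in BALB/cJ and 8.5 to 29.9 TPM in C57BL/6J (adjusted p 2.3e-04). Of the words of Gbp6, 67.8% occur in Gm43302 too. Gvin1 was at 1.05e-04 to 0.348 TPM in BALB/cJ and 28.4 to 51.9 TPM in C57BL/6J, and 99% of its words occur in Gm4070 too. It passes the filter on low values only through the C57BL/6J libraries.

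Sensors of bacteria and of cytosolic DNA differed one by one. Tlr4, the receptor of lipopolysaccharide, was at 10.1 to 13.8 TPM (median 11.4) in BALB/cJ, against 1.58 to 4.78 TPM (median 3.77) in C57BL/6J (log2 difference 1.5 ± 0.17 SE, adjusted p 3.4e-05). Ly96, which encodes the coreceptor MD-2 of Tlr4, went the other way, at 6.66 to 12.1 TPM in BALB/cJ and 11.9 to 14.7 TPM in C57BL/6J (adjusted p 0.00258). Tlr6, which senses lipopeptides, was 3.06-fold higher and Tlr11, a sensor of profilin, 2.63-fold higher in BALB/cJ. Of 20 Toll-like receptor genes and adaptors 5 (25%) were higher and 1 (5%) lower, against 17.2% and 3.17% of all genes. The higher count was 3 without BALB/cJ mouse 1, 2 or 4, where Tlr11 was below the filter on low values and not tested. Ifi202b, a DNA-binding protein of the Aim2 family, was at 3.02 to 4.82 TPM in BALB/cJ and 0 to 0.0583 TPM in C57BL/6J. Aim2, a DNA sensor that builds inflammasomes, was 1.72-fold higher (adjusted p 0.00972), and Ifi213 was 2.37-fold lower in BALB/cJ.

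Inflammasome and gasdermin genes were lower in BALB/cJ in 7 of 17 tested (41.2%, against 3.17% of all genes). The count was the same in all 4 fits and 5 to 7 with single libraries left out. As deposited 3 (17.6%) were higher, near the 17.2% of all genes. The 3 became 1 when any of 8 single libraries was left out, and 0 after scaling, where 1 had an unadjusted p under 0.05. Nlrp1b, a sensor with alleles that differ between mouse strains, was at 0.423 to 1.14 TPM (median 0.58) in BALB/cJ, against 5.92 to 7.95 TPM (median 7.12) in C57BL/6J (log2 difference -2.31 ± 0.11 SE, adjusted p 1.2e-09). Gsdmc4 was 17.4-fold lower in BALB/cJ, at 1.4 to 4.65 TPM against 14.1 TPM in C57BL/6J mouse 2 and 46.5 to 76.1 TPM in the others. Gsdmc3, also of the gasdermin C family of pore-forming proteins, was 7.93-fold lower (adjusted p 9.3e-04). Of the words of Gsdmc4 and Gsdmc3, 48.8% and 40.5% occur in no other gene. Naip6, a member of the family that senses flagellin and secretion needles, was at 48.4 to 79.2 TPM in BALB/cJ and 72.1 to 132 TPM in C57BL/6J (adjusted p 0.00583). Gsdmd and Nlrp6 had log2 differences of 0.02 (adjusted p 0.954) and 0.09 (adjusted p 0.449).

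Of 31 complement genes 10 (32.3%) were higher and 2 (6.45%) lower in BALB/cJ, against 17.2% and 3.17% of all genes. After scaling 5 (16.1%) were higher and 2 (6.45%) lower, against 6.06% and 5.68%. The higher count was 3 without BALB/cJ mouse 5, 5 without BALB/cJ mouse 1 or mouse 2, and 6 without BALB/cJ mouse 6. In those fits C1rb and C1s2, which pass the filter on low values only through the 6 BALB/cJ libraries, were not tested and so could not be called. C1rb and C1s2, proteases of the classical pathway, were at 2.66 ± 0.769 TPM and 2.44 ± 0.684 TPM in BALB/cJ, against 0.0736 ± 0.0796 TPM and 0.101 ± 0.066 TPM in C57BL/6J. The sum of C1ra and its copy C1rb was 18.7 to 38.6 TPM in BALB/cJ, against 3.07 TPM in C57BL/6J mouse 2 and 11.7 to 16.2 TPM in the others. C6, of the membrane attack complex, was 2.07-fold higher in BALB/cJ. Among 26 chemokines 5 (19.2%) were higher and 3 (11.5%) lower, against 17.2% and 3.17% of all genes tested, with 2 higher without BALB/cJ mouse 2 or C57BL/6J mouse 1, and 3 without any of 6 other libraries. Ccl11, which attracts eosinophils, and Cxcl12, a ligand made by stroma, were 2.24-fold and 2.04-fold higher in BALB/cJ. Ccl27a was 3.07-fold lower (adjusted p 8.4e-05) and Cx3cl1, the ligand of Cx3cr1, 1.58-fold lower (adjusted p 0.016). Of the words of Ccl27a, 43% occur in no other gene. BALB/cJ mouse 2 was the highest library of its strain for C1rb, C6 and Cxcl12.

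**Figure D5:**
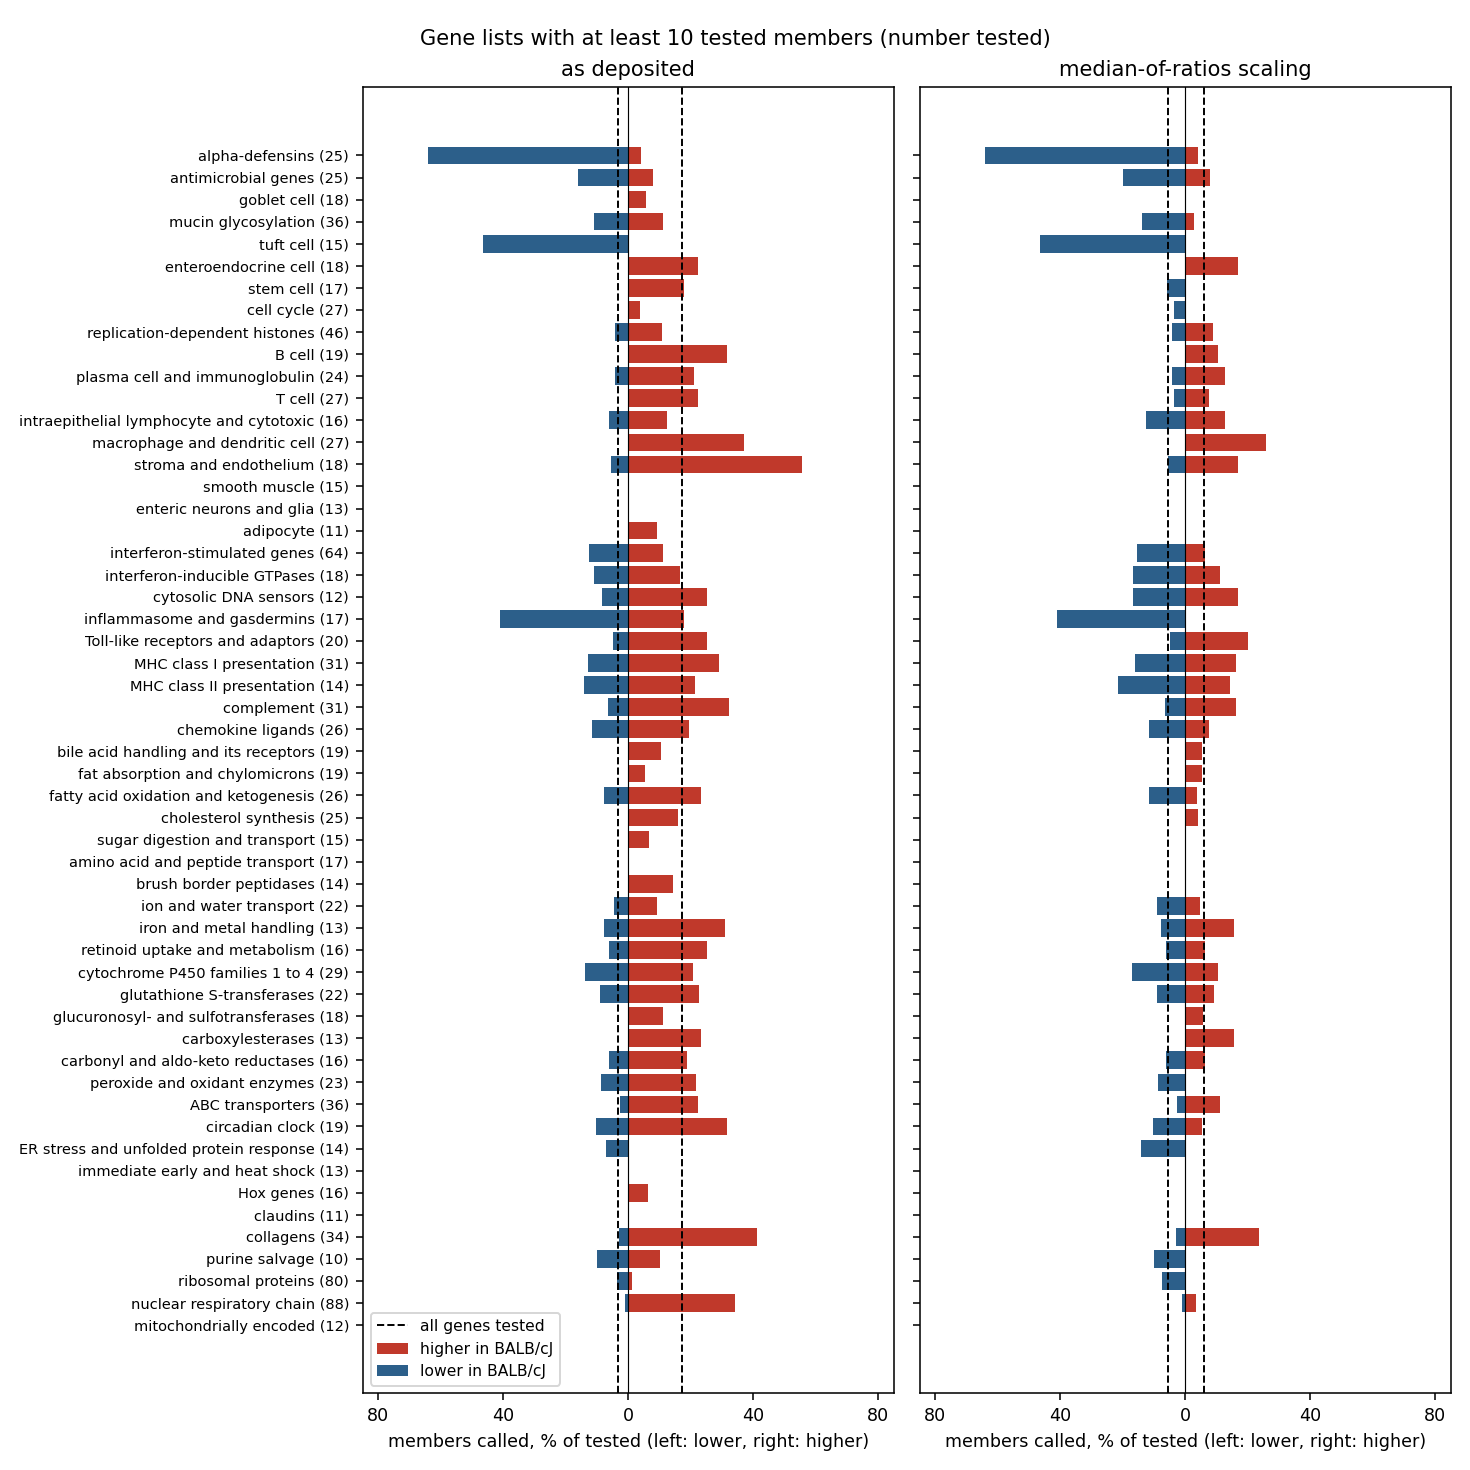
Percent of tested members called lower (bars to the left) and higher (bars to the right) in BALB/cJ for gene lists with at least 10 tested members (rows, number tested in brackets), as deposited (left panel) and after median-of-ratios scaling (right panel); dashed lines mark the shares of all genes tested. Alpha-defensins, tuft cell and inflammasome lists reach far to the left in both panels, and the nuclear respiratory chain goes to the right only as deposited, with 30 of 88 higher against 3 of 88 after scaling.

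Genes of bile acid handling, fat absorption and amino acid transport gave few calls, and those of fatty acid oxidation and ketogenesis more. Of 26 of the latter 6 (23.1%) were higher and 2 (7.69%) lower, against 17.2% and 3.17% of all genes. After scaling 1 (3.85%) was higher and 3 (11.5%) lower, against 6.06% and 5.68%. The higher count was 3 to 9 with single libraries left out. As deposited 2 of 14 brush border peptidases and 2 of 4 alkaline phosphatases were higher, and 0 after scaling. Fabp6, Slc10a2 and Fgf15, the bile acid genes of the ileum, had adjusted p of 0.341, 0.337 and 0.137, and of 0.211, 0.45 and 0.179 without C57BL/6J mouse 2. Fgf15 was at 7.05 to 109 TPM (median 51.8) in BALB/cJ and 0.425 to 36.6 TPM (median 18.3) in C57BL/6J. Nr0b2, the repressor SHP that the bile acid receptor induces, was higher in BALB/cJ at 2.44 to 7.93 TPM (median 6.87), against 2 TPM in C57BL/6J mouse 2 and 0.053 to 0.557 TPM in the others (log2 difference 2.27 ± 0.27 SE, adjusted p 3.5e-05). It was the only call among 19 genes of bile acid handling after scaling with all libraries, and without C57BL/6J mouse 2 there were 1 higher and 2 lower. Plin2, a lipid droplet coat, was 1.65-fold higher, the only call among 19 genes of fat absorption with all libraries. Without C57BL/6J mouse 2, 3 of them were higher, and 2 after scaling. Of 25 genes of cholesterol synthesis 4 (16%) were higher, near the 17.2% of all genes. After scaling 1 was higher, Insig1, an inhibitor of the pathway (1.76-fold, adjusted p 9.6e-04). Fabp2, a carrier of fatty acids, and Apoa1, an apolipoprotein of chylomicrons, were among the 10 most abundant genes and had adjusted p of 0.763 and 0.941. The limma fit called 0 of 17 amino acid and peptide transporters, where 2 had an unadjusted p under 0.05. Likewise it called 0 of 11 claudins, where 2 had such a p, and 0 of 12 mitochondrially encoded genes, where 1 did. Without C57BL/6J mouse 2 it called 1 of the transporters and 4 of the mitochondrially encoded genes higher, calls that were lost after scaling. The mitochondrially encoded genes summed to 78385 TPM in that library, against 27812 to 35425 TPM in BALB/cJ and 23208 to 29949 TPM in the other C57BL/6J ilea.

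Metal, retinoid and detoxification genes held single large differences. The metallothioneins Mt1 and Mt2, which bind zinc and copper, had BALB/cJ means 2.33-fold and 2.82-fold above those of C57BL/6J (adjusted p 9.3e-06 and 4.5e-04). Of the words of Mt2, 57.6% occur in Gm45774 too. Slc11a2, the iron importer of enterocytes, was 1.53-fold lower. Bco2, which cleaves carotenoids, was 2.56-fold lower, with C57BL/6J mouse 2 highest at 71.6 TPM, and 19.2 to 27.5 TPM in the other C57BL/6J ilea against 7.32 to 14.3 TPM in BALB/cJ. Aldh1a2, which makes retinoic acid, was 2.05-fold higher in BALB/cJ. Gsta1, a glutathione S-transferase, was at 1.13 to 7.52 TPM in BALB/cJ, against 433 TPM in C57BL/6J mouse 2 and 47.6 to 53.2 TPM in the others. With Gsta2 its sum was 9.9 to 21 TPM in BALB/cJ, against 604 TPM in C57BL/6J mouse 2 and at least 64.2 TPM in the others. Only 7.14% of the words of Gsta1 occur in no other gene, and 80.3% occur in Gm3776, which is not in this sum. Gstm2, of another class of these enzymes, was 4.7-fold higher in BALB/cJ (adjusted p 2.6e-07). Cyp2c67 and Cyp3a44, cytochromes of drug and steroid oxidation, were 12.5-fold and 8.61-fold higher in BALB/cJ, and 32.4% and 51.6% of their words occur in no other gene. Cyp2c67 was low in both strains, at 1.66 to 4.14 TPM in BALB/cJ and 0 to 0.809 TPM in C57BL/6J. Cyp4f18 and the vitamin D hydroxylase Cyp2r1 were 2.59-fold and 2.47-fold lower. Ces1b and Ces1c, carboxylesterases, were 13.9-fold and 3.03-fold higher. Ces1b was low too, at 1.22 to 1.93 TPM in BALB/cJ and 0.0322 to 0.218 TPM in C57BL/6J. Like Cyp2c67 it passed the filter on low values only through the 6 BALB/cJ libraries. Dbp, an output gene of the circadian clock, was 2.83-fold higher in BALB/cJ, while the times of collection are not in the labels.

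Ribosomal protein and respiratory chain genes moved with the choice of libraries and scaling. Of 80 ribosomal protein genes 1 (1.25%) was higher and 3 (3.75%) lower in BALB/cJ as deposited, against 17.2% and 3.17% of all genes. After scaling 0 were higher and 6 (7.5%) lower, against 6.06% and 5.68%. At an unadjusted p under 0.05 limma gave 40 higher and 5 lower as deposited, and 1 higher and 7 lower after scaling. Without C57BL/6J mouse 2 the counts were 21 and 8 as deposited, where 19.6% and 3.86% of all genes were called. They were 1 and 11 after scaling, where these shares were 7.54% and 7.08%. Without C57BL/6J mouse 3, 6 were higher. Rps2, a protein of the small subunit, was lower in BALB/cJ in all 4 fits, at 913 to 1243 TPM against 982 TPM in C57BL/6J mouse 2 and 2207 to 2900 TPM in the other C57BL/6J ilea (adjusted p 0.00501). Of 88 nuclear genes of the respiratory chain 30 (34.1%) were higher and 1 lower as deposited, and 3 (3.41%) and 1 after scaling. Over all genes 17.2% and 6.06% were higher. The higher count lay between 12, without BALB/cJ mouse 5, and 44, without C57BL/6J mouse 2. The lower member was Ndufa12, and the higher members after scaling were the assembly factors Ndufaf4 and Ndufaf1 and Cox7a2l, which joins complexes, at 1.46-fold, 1.71-fold and 1.39-fold. Of 27 cell cycle genes 1 was called as deposited, and 10 were lower without C57BL/6J mouse 2 after scaling. Among all genes 20.4% were called as deposited, and 7.08% were lower in that last fit.

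Genes called in all 4 fits lay on every chromosome but the mitochondrial one, with a lowest autosomal share of 5.7% on chromosome 10. Some stretches held many of them, and those named were picked for having the most. Of the genes called in all 4 fits, chromosome 17 held 98 of 730 tested (13.4%), chromosome 12 75 of 603 (12.4%) and chromosome 8 99 of 822 (12%), against 8.67% over all genes. On chromosome 8 the megabase from 21000001 to 22000000 held 21 called genes of 31 tested, 2 higher and 19 lower in BALB/cJ, most of them alpha-defensins. On chromosome 17 the megabase from 34000001 to 35000000 held 12 of 57, 4 higher and 8 lower. It covers H2-Ab1, H2-DMb1, H2-DMb2, H2-Ea-ps, the transporter gene Tap1, Btnl1, Btnl6 and the complement gene C4b. Positions are those of GENCODE M21 on GRCm38, which held 14998 of the 15537 tested names once.

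The strain difference in the ileum was set against that in the other tissues of the same mice with a limma fit on the difference between tissues within each mouse. It differed from that in the duodenum/jejunum in 246 genes (1.58%) and from that in the colon in 589 (3.79%). Against the duodenum/jejunum the count was 535 without the libraries of C57BL/6J mouse 2, 55 after scaling and 15 with a pseudocount of 0.1 in place of 1. Against the colon it was 919 without mouse 2. Among the named genes with the largest differences in the ileum, Mptx1 and Clec2j differed from the duodenum/jejunum with all mice, and 4 others only without C57BL/6J mouse 2. Mptx1 averaged 74.1 ± 26.4 TPM in BALB/cJ and 3.12 ± 1.58 TPM in C57BL/6J there, and the difference in the ileum minus that in the duodenum/jejunum was 1.69 ± 0.21 SE (adjusted p 0.00479). For Clec2j it was 1.46 ± 0.27 (adjusted p 0.0304, and 0.0656 after scaling). In the colon Mptx1 went the other way, at 548 ± 142 TPM in BALB/cJ and 2832 ± 1325 TPM in C57BL/6J (adjusted p of the difference 4.2e-08). Defa27 averaged 4362 ± 1560 TPM in BALB/cJ and 3.4 ± 3.86 TPM in C57BL/6J in the duodenum/jejunum, and was low in the colon at 3.47 ± 4.16 TPM in BALB/cJ and 1.09 ± 1.36 TPM in C57BL/6J. St3gal4 was low in BALB/cJ in each tissue, at 6.63 ± 1.81 TPM against 1163 ± 188 TPM in the duodenum/jejunum and 23.5 ± 4.44 TPM against 230 ± 32.4 TPM in the colon. Its strain difference in the ileum minus that in the colon was -3.81 ± 0.23 SE on the log2 scale (adjusted p 3.8e-07). Sprr2a2 was more abundant in the colon than in the ileum in both strains, at 811 ± 99.5 TPM in BALB/cJ and 6731 ± 456 TPM in C57BL/6J, and the difference in the ileum minus that in the colon was -2.35 ± 0.29 (adjusted p 3.6e-04). For Eno1b, Tpm3-rs7, Actc1 and Gvin1 a difference between the ileum and either tissue was not detectable at the spread between mice. Against the duodenum/jejunum, Defa33, Defa2, Defa32 and Rps3a2 were called only without C57BL/6J mouse 2. For these genes the difference in the ileum minus that in the duodenum/jejunum was then -3.26, -1.64, -2.86 and 1.04 (adjusted p 2.9e-04, 0.00647, 0.0286 and 0.0406). Against the colon, Pla2g2a was called only without that mouse (adjusted p 0.017).

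Some genes were called under both scalings only when the ileum library of C57BL/6J mouse 2 was left out, and the 6 largest in each direction were as follows. Higher in BALB/cJ were Ccl24, a chemokine for eosinophils, the glutathione S-transferases Gstm1 and Gstm6, the alcohol dehydrogenase Adh4, the lipid deacetylase Aadac and Defa31. Ccl24 was at 4.43 to 11.5 TPM in BALB/cJ, against 35 TPM in C57BL/6J mouse 2 and 0.487 to 1.5 TPM in the others (adjusted p 0.088 with and 1.0e-05 without that library). Gstm1 was at 51.1 to 137 TPM in BALB/cJ, against 191 TPM in C57BL/6J mouse 2 and 21.8 to 35.8 TPM in the others. Lower in BALB/cJ were Defa29, Defa3, Ang4, Duoxa2, the maturation factor of Duox2, Gstm3 and Plet1. Defa3 was at 415 to 650 TPM in BALB/cJ, against 194 TPM in C57BL/6J mouse 2 and 869 to 2162 TPM in the others (adjusted p 0.0803 with and 6.7e-05 without that library). Defa17 holds 89.2% of the words of Defa3. The sum of the pair overlapped, at 5438 to 7598 TPM in BALB/cJ and 4310 to 11887 TPM in C57BL/6J without mouse 2. In Ccl24, Gstm1 and Defa3 the library of C57BL/6J mouse 2 lay beyond the BALB/cJ range, and the other 6 on the opposite side of it.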

How the data were processed

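RNA came from a PureLink extraction and was sequenced as TruSeq total RNA libraries after RiboZero depletion, per the labels. The submitters' processing notes name kallisto 0.44.0 and the build GRCm38; the annotation of transcripts is not given there or in the labels. Each tissue has 1 table of log2(TPM + 1) values, deposited as the authors made them. Of 34600 entries, 26 with names turned into dates were left out, and 34574 were used. GRCm38 is the genome of C57BL/6J, and whether bases that differ in BALB/cJ lower or shift values was not tested.

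Genes that reached 1 TPM in 6 or more of the 13 ileum libraries were compared with limma 3.58.1 in R 4.3.3 on log2(TPM + 1), a pseudocount of 1, with a variance trend. A gene high in 1 strain only can pass this filter through that strain alone. Its call is then not independent of the filter. The comparison was unpaired and tests were 2-sided. A fitted difference is on the log2(TPM + 1) scale and understates the change of low genes, so folds are ratios of mean TPM. P-values were adjusted by Benjamini-Hochberg over all genes tested, with a threshold of 0.05, and measure the spread between these mice. Median-of-ratios scaling and leaving out the ileum library of C57BL/6J mouse 2 gave 4 fits. Other alternatives were a pseudocount of 0.1, no filter, 1 TPM in all 13 libraries, no trend, a replicate block, and each library left out. The code was tested on simulated data. Mice 1 to 6 of the strains share numbers only, since they are different animals.

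The members, the 69 gene lists and the rules were chosen with earlier results of these data known. Named genes are the 12 largest differences per direction among genes called in all 4 fits (mean of at least 5 TPM, no overlap without C57BL/6J mouse 2, no predicted genes, pseudogene symbols or receptor segments), up to 4 called members per list by adjusted p, check genes, the 10 most abundant genes, 6 genes per direction called only without that library, and defining markers. A few genes that these rules pick are not reported here. Sums over alike genes carry no test. Shared 31-base words and coding sequences come from GENCODE M21 (GRCm38), with alignment in Biopython 1.88. Tables and figures were made with pandas 2.3.3, numpy 2.4.6 and matplotlib 3.10.9 in Python 3.11.15.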

Additional observations from a re-analysis of the deposited data

Results flagged for a closer look

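Among the named genes, 340 groups of libraries were examined for a library far from the rest of its strain, by the gap to its nearest neighbour over the range of the group. Such a gap was found in 88 of them, and chance alone gives about 1 in 20 groups. C57BL/6J mouse 2 was the library that stood apart in 53 of the 88, and another library was in 35. The named genes include 6 per direction picked because they were called only without C57BL/6J mouse 2. The count for that library is therefore partly set by the choice of genes, and cannot be set against the rate by chance. The values below are gaps as a share of the range, on the log2(TPM + 1) scale.

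The ileum library of C57BL/6J mouse 2 was far below the other C57BL/6J ilea in alpha-defensins. The gap was 0.83 for Defa33, 0.81 for Defa32, 0.79 for Defa2, 0.77 for Defa20, 0.76 for Defa21, 0.75 for Defa22, 0.70 for Defa27, 0.67 for Defa26, 0.65 for Defa24 and Defa29, 0.64 for Defa17, 0.63 for Defa31 and 0.62 for Defa3. Other epithelial and Paneth cell genes were low in it too: Fabp6 (0.87), Gcg (0.77), Slc10a2 (0.71), Gsdmc4 (0.70), Pla2g2a (0.68), Mptx2, Ang4 and Chac1 (0.67), Zg16 (0.63), Gsdmc3 and Car12 (0.62), Pla2g4c (0.61) and Mgst1 (0.59). Of stromal, immune and ribosomal genes it was low in Cxcl12 and Rps2 (0.75), Rps18 (0.73), Cx3cr1 and Lyz2 (0.70), Pdgfrb and Col14a1 (0.69), Aldh1a2 (0.67), Pdgfra (0.65), Igha (0.64), Gbp6 (0.63), Ccl11 (0.60), Pou2af1 and Mrc1 (0.59) and H2-DMb1 (0.57). It was far above the other C57BL/6J ilea in Tmprss15 (1.00), Gsta1 (0.95), Gsta2 (0.90), Ccl24 (0.84), Gstm6 (0.83), Gstm1 (0.78), Bco2 (0.73), St3gal4 (0.68), Trpm5 and Adh4 (0.66), Nr0b2 (0.63) and Trim30d (0.58).

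BALB/cJ mouse 2 stood above the other BALB/cJ ilea in Pdgfrb (0.89), Col14a1 (0.84), Klrk1 and H2-Ea-ps (0.81), Mrc1 (0.79), Kdr (0.78), Lyz2 (0.77), C6 (0.75), Igha (0.74), C1rb (0.72), Pou2af1 and Gbp4 (0.70), Pdgfra and Cxcl12 (0.67), Nlrp1b (0.65) and Fcrl1 (0.64). It stood below them in Vnn1 (0.80), Fabp2 (0.67) and Apoa1 (0.64). Single genes set other libraries apart. In BALB/cJ these were Gsta2 (mouse 1 high, 0.78), Pla2g4c (mouse 1 low, 0.67), Nr0b2 (mouse 1 low, 0.66), H2-Q10 (mouse 3 low, 0.79), Ces1b (mouse 4 low, 0.68), Ccl5 (mouse 4 high, 0.63), Fabp6 (mouse 5 high, 0.71), Defa20 (mouse 5 low, 0.67), Rps4l (mouse 6 low, 0.65) and Hist1h2ao (mouse 6 low, 0.63). In C57BL/6J they were Hist1h2ao (mouse 4 high, 1.00), Neil1 (mouse 3 high, 0.70), Gvin1 (mouse 3 high, 0.68), Ccl27a (mouse 3 high, 0.66), Ugt2b36 (mouse 3 high, 0.65) and Tpm3-rs7 (mouse 3 low, 0.57).

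The strain difference in the ileum was unlike that in another tissue for some of the genes with the largest differences, by the limma test of the difference of differences. Values are the log2 difference in the ileum minus that in the other tissue. Against the duodenum/jejunum it was 1.69 for Mptx1 and 1.46 for Clec2j. Against the colon it was 8.70 for Defa27, 8.17 for Mptx1, 1.32 for Clec2j and 1.17 for H2-K2. Among genes lower in BALB/cJ it was -10.91 for Defa21, -10.89 for Defa2, -9.85 for Defa33, -8.59 for Defa32, -8.36 for Defa20, -8.15 for Defa22, -7.19 for Defa26, -3.81 for St3gal4, -2.35 for Sprr2a2, -2.01 for Sprr2a1 and -1.93 for Dynlt1a.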

How the results depend on the processing

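Median-of-ratios scaling moved the counts of called genes to 1824 in all, with 942 higher and 882 lower in BALB/cJ, and with C57BL/6J mouse 2 left out as well to 1163 higher and 1093 lower. With single libraries left out the count ranged from 1948 to 4041, of which 1579 to 3551 were higher and 369 to 596 lower. A pseudocount of 0.1 (3076 calls), no filter on low values (2887), 1 TPM in all 13 libraries (2634) and no variance trend (3088) stayed within 1.5 times the 3169 calls. The difference between the ileum and the duodenum/jejunum was called in 535 genes without C57BL/6J mouse 2, in 55 after scaling and in 15 with a pseudocount of 0.1, and that between the ileum and the colon in 919 without mouse 2. A replicate block on mouse numbers 1 to 6 gave 929 calls, 673 higher and 256 lower. Same-numbered mice of the strains were not paired: the correlations of their deviations were 0.0365, -0.339, -0.188, -0.00251, 0.117 and -0.146. The rules that picked most named genes required the same outcome after scaling, so their stability under scaling was set by the choice. Over all genes, 942 of the 2677 higher calls and 490 of the 492 lower calls were kept after scaling. Of the 178 named genes tested, all stayed on their side of the threshold after scaling alone. Under the block 45 lost their call, and 1 to 14 of those tested lost it with single libraries left out. In these last fits 11 of the genes, among them H2-Ea-ps, Clec2j, C1rb, Ncr1 and Ifi44l, were tested in 7 of 13, since fewer than 6 libraries then reached 1 TPM. None changed direction while called. Depth is unknown in TPM, so precision rests on 6 and 7 mice, on 1 library each. Sex, age, housing and time of collection are not in the labels and cannot be told apart from strain where they differ. Copies alike in sequence share reads. The part that C57BL/6J mouse 2 and BALB/cJ mouse 2 play in each count was measured only by leaving them out.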
